A study of Homo sapiens with 13 samples.

Results

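The loci described here are those of 7 genes long known as glucocorticoid-induced, namely FKBP5, TSC22D3, PER1, DUSP1, ZBTB16, KLF9 and SGK1. A peak was a member when it overlapped the hg19 span of 1 of these genes extended by 25 kb on both sides, whatever its value. This gave 1878 peaks of the 3429979 in 12 deposited lists, and 92 to 234 per list. The 7 loci span 954 kb together, from 53 kb at DUSP1 to 241 kb at ZBTB16.

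The peaks come from CUT&RUN, in which nuclease tethered by an antibody cuts out the DNA around the antibody's target for sequencing. All samples were Nalm6, a cell line from human B-cell acute lymphoblastic leukaemia, grown in medium with charcoal-stripped serum, which is low in steroid hormones. The antibodies were rabbit monoclonals against LEF1 or TCF7L2. Treated cells received 5 µM of the synthetic glucocorticoid prednisolone for 24 h, and the others were controls, which have the treatment "None" in 1 label and a vehicle in the protocol. Each of the 4 groups (LEF1 control, LEF1 prednisolone, TCF7L2 control and TCF7L2 prednisolone) had 3 replicates from separate experiments, per the series' design text, all in this 1 line. The IgG sample was not analysed here. No RNA and no receptor binding enter these lists, so the identity of the cells and the induction of the genes could not be checked in them.

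As background, the glucocorticoid receptor is a hormone-activated transcription factor that moves to the nucleus when it binds its ligand and raises transcription from response elements that often lie far from a gene's start. In lymphoid leukaemia glucocorticoids are used because they kill the cells. LEF1 and TCF7L2 are HMG-box factors of the TCF/LEF family that recruit β-catenin in Wnt signalling. Among the 7 genes, FKBP5 encodes a co-chaperone that lowers the receptor's affinity for hormone, and TSC22D3 encodes GILZ, an anti-inflammatory leucine zipper protein. DUSP1 encodes a phosphatase that switches off MAP kinases, SGK1 a serine/threonine kinase, and PER1 a repressor of the circadian clock. ZBTB16, also named PLZF, and KLF9 encode zinc finger transcription factors.

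The promoters of FKBP5 and KLF9 are shown because these were the genes with a LEF1 top peak, as defined with the counts, within 1 kb of the start in 3 or more lists. At FKBP5 those peaks reached the start but had their summits about 4.0 kb upstream of it. They are the 250 bases upstream of the outermost start in RefSeq on GRCh38.p14, 5′ to 3′ on the gene's strand, and were not moved to hg19. Capitals mark CTTTG, the core of the TCF/LEF motif, which on the other strand reads CAAAG.
FKBP5, chr6:35728584-35728833, minus strand: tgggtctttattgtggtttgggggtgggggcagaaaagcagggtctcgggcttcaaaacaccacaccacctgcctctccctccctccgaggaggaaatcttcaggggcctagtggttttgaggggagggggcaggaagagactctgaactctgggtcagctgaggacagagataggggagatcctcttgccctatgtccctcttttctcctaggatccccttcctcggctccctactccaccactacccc
KLF9, chr9:70414658-70414907, minus strand: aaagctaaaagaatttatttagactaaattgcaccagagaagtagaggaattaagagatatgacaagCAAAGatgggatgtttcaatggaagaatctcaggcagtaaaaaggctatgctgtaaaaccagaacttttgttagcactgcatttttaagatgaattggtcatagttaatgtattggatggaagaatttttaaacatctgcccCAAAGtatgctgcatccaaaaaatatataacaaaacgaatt
The KLF9 window, with 32.4% G and C, held 2 cores, and the FKBP5 window, with 57.6%, held none. The table had 12 promoters for 6 of the 7 genes. None of the 12 held the longer TCF/LEF motif, CTTTG followed by AA, AT, TA or TT, on either strand, which 12% of 35114 RefSeq promoters of this length held. None held TGTTCT, the half-site of the receptor's response element, on either strand, against 12.4% of all promoters. CTTTG alone, a search added after the data were seen, was in 42.1% of all promoters. Among the 12 it was in 1 or more promoters of FKBP5, KLF9, SGK1 and TSC22D3, and in none of DUSP1 and PER1. The FKBP5 promoter that held it was an inner one, chr6:35688916-35689165.

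The lists held 128863 to 395786 peaks and ended at a p-value of 0.05, so counts were compared among the 20000 strongest peaks of each list by the authors' p-value, called top peaks here. A rank is a peak's place in its own list, 1 being the strongest, and fold is the authors' own enrichment of a peak over the background modelled by the caller. At the limit of 20000, −log10 q was 5.49 to 6.62 in the LEF1 lists and 0.39 to 0.996 in the TCF7L2 lists, so the lower TCF7L2 top peaks are weak. Ranks beyond 20000 only place a weak peak within its own list, since the lists differ in length, and were compared as absent from the top peaks. With 3 lists against 3, the smallest exact permutation p-value is 0.1, and no locus or region can pass 0.05 alone.

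ZBTB16 was the locus at which top peaks differed most between treatments, for both antibodies. LEF1 had 3, 1 and 3 top peaks there in control 1 to 3, and 11, 11 and 10 in prednisolone 1 to 3. The means were 2.33 ± 1.15 and 10.7 ± 0.577 (SD, n = 3 each), and the exact permutation p-value was 0.1, two-sided. The groups did not overlap, which held in this direction in 5.21% of 8011 genome windows of the same length with a LEF1 top peak. The lowest prednisolone count lay 7 above the highest control count. The highest such gap in any of those windows was 5; the window grid divides the ZBTB16 locus itself.

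TCF7L2 had 0, 0 and 2 top peaks at ZBTB16 in the controls and 11, 9 and 8 after prednisolone. The means were 0.667 ± 1.15 and 9.33 ± 1.53 (SD, n = 3 each; exact permutation p = 0.1, two-sided). The groups again did not overlap, as in 4.01% of 11098 windows. Here 13 windows (0.117%) had a gap at least as large as the 6 of ZBTB16. At the genome's mean density a window of this length would hold 1.56 top peaks, so the control counts lay near that level and the prednisolone counts above it.

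In the full lists, the number of ZBTB16 peaks itself overlapped between treatments: LEF1 had 37, 30 and 29 in the controls and 58, 73 and 37 after prednisolone (exact permutation p = 0.2, two-sided), and TCF7L2 44, 45 and 43 against 67, 63 and 35 (p = 0.4). Prednisolone 3 had the shortest list of each antibody, and as a share of the list the order was that of the top peaks. LEF1 control lists had 13.02, 14.12 and 11.11 peaks there per 100000 peaks, and prednisolone lists had 24.14, 18.76 and 28.71. TCF7L2 control lists had 11.29, 13.64 and 12.76, and prednisolone lists 21.11, 15.92 and 24.29. Neither pair of groups overlapped, which held for 4.55% of LEF1 and 5.45% of TCF7L2 windows. Counting peaks at or above 5 in −log10 q, LEF1 had 7, 4 and 5 control against 13, 11 and 11 prednisolone peaks, a separation seen in 3.63% of windows. TCF7L2 had none in the 3 controls and 2, 1 and 1 after prednisolone, as in 1.09% of windows.

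**Figure D1:**
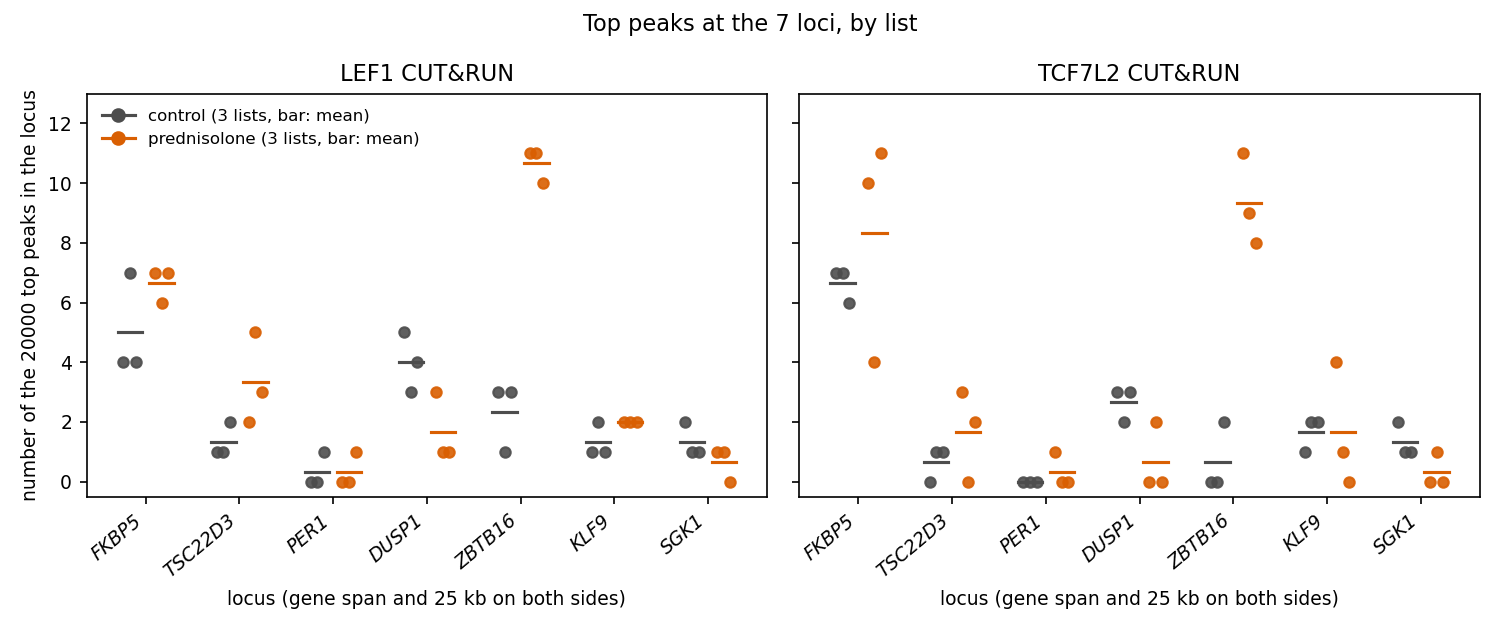
Number of top peaks (of 20000 per list) at each of the 7 loci, 1 point per list, for LEF1 and TCF7L2, controls beside prednisolone, with a bar at each mean. At ZBTB16 every prednisolone list lies above every control list for both antibodies, and at the other 6 loci the treatments overlap.

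At the other 6 loci the top counts of the treatments overlapped for both antibodies. At FKBP5, LEF1 had 4, 7 and 4 control and 7, 6 and 7 prednisolone top peaks, and TCF7L2 had 7, 7 and 6 control and 10, 4 and 11 prednisolone top peaks. FKBP5 thus held several peaks in every list, against 1.32 at the genome's mean density. At TSC22D3, LEF1 had 1, 1 and 2 against 2, 5 and 3, and TCF7L2 0, 1 and 1 against 3, 0 and 2. At DUSP1 the counts leaned the other way, with LEF1 5, 3 and 4 against 3, 1 and 1, and TCF7L2 3, 2 and 3 against 0, 2 and 0. This difference lay in the flanks of 25 kb: without them the mean difference at DUSP1 was 0 for both antibodies. No top peak of any list overlapped the gene span of 3 kb itself, so that value compares no peaks. KLF9, PER1 and SGK1 held at most 4 top peaks in any list.

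To follow single sites, the top peaks of the 6 lists of an antibody were merged wherever they overlapped. Gained regions had a top peak in each of the 3 prednisolone lists and in none of the controls, and lost regions the reverse. Ranks in such regions are separated by this choice. Their folds and q-values come from the same peaks, so a separation of these is no further support. LEF1 had 44 regions at the 7 loci, of which 8 were gained (18.2%), against 2.82% of its 36895 regions in the genome, and 1 was lost (2.27%), against 1.93%. TCF7L2 had 60 regions, of which 3 were gained (5%), against 0.363% of 79352, and 2 were lost (3.33%), against 1.23%. By rank alone, where every list of a treatment ranked a region better than every list of the other, 12 LEF1 regions were better after prednisolone (27.3%, against 7.78% in the genome) and 1 in the controls (2.27%, against 7.67%). For TCF7L2 these were 3 (5%, against 1.00%) and 2 (3.33%, against 2.23%). ZBTB16 held 6 of the 8 gained LEF1 regions and all 3 gained TCF7L2 regions. Without ZBTB16, 2 of 30 LEF1 regions (6.67%) and 0 of 39 TCF7L2 regions were gained. Most called regions had a weak peak in some full list of the other treatment, so that a call mostly separates strong from weak peaks. Exactly 1 gained LEF1 region, and none of the other calls, lacked a peak in every full list of the other treatment.

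The highest LEF1 fold at ZBTB16 was in a gained region at chr11:114048289-114052673 (hg19, 4385 bp), 120.2 kb inside the gene from its start. Its peaks had ranks of 276489, 127557 and 181849 in the control lists and 4902, 470 and 696 in the prednisolone lists. The fold was 1.73, 2.8 and 2.5 in the controls and 8.53, 23.3 and 21.1 after prednisolone, with −log10 q-values of at most 0.667 and at least 19.1. The groups did not overlap, which for the ranks follows from the choice of gained regions, and prednisolone 1 was the lowest of the treated lists. The TCF7L2 region over it, chr11:114049205-114051135, was also gained. Its fold was 2.93, 2.61 and 1.81 in the controls and 7.81, 7.33 and 8.02 after prednisolone, without overlap.

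A LEF1 region lay on either side of this site. At chr11:114057138-114059456, 128.4 kb from the start, LEF1 ranked 12340, 47791 and 26470 in the controls and 746, 532 and 924 after prednisolone, with a fold of 5.73, 2.73 and 3.99 against 17.6, 18.7 and 16. The ranks did not overlap, although control 1 already had a top peak. TCF7L2 gained the region beneath it, chr11:114057319-114058867, with a fold of 2.32, 2.49 and 2.34 against 3.56, 3.93 and 3.97, a small but complete separation. On the other side, at chr11:114041843-114045500, LEF1 had a top peak in all 6 lists, with a fold of 10.6, 7.02 and 6.6 in the controls and 9.48, 13.3 and 11.2 after prednisolone. There the LEF1 groups overlapped. TCF7L2 at chr11:114042175-114044442 was gained, with a fold of 2.65, 2.76 and 3.12 against 7.95, 5.73 and 3.88.

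The remaining 5 gained LEF1 regions of ZBTB16 were spread along the gene. In each the treated folds lay above the control folds, which largely follows from how gained regions were picked. The regions chr11:113966911-113969288, chr11:113987340-113989561 and chr11:114013947-114015638, at 38.1, 58.7 and 84.4 kb from the start, had control folds of 3.13 to 3.92, 3.78 to 4.47 and 3.8 to 5.5. Their prednisolone folds were 6.4 to 8.48, 7.2 to 8.69 and 9.13 to 12.1. The region at 133.8 kb, chr11:114063202-114064290, had no peak in any full control list and a fold of 7.62, 9.4 and 7.93 after prednisolone. It was the 1 call with no peak at all on the other side. The region at 192.6 kb, chr11:114122465-114123559, lay beyond the end of the gene and had a weak peak in control 1 alone, at a fold of 1.78, against 7.26, 6.39 and 5.9 after prednisolone. No list of either antibody had a peak within 1 kb of the ZBTB16 start.

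**Figure D2:**
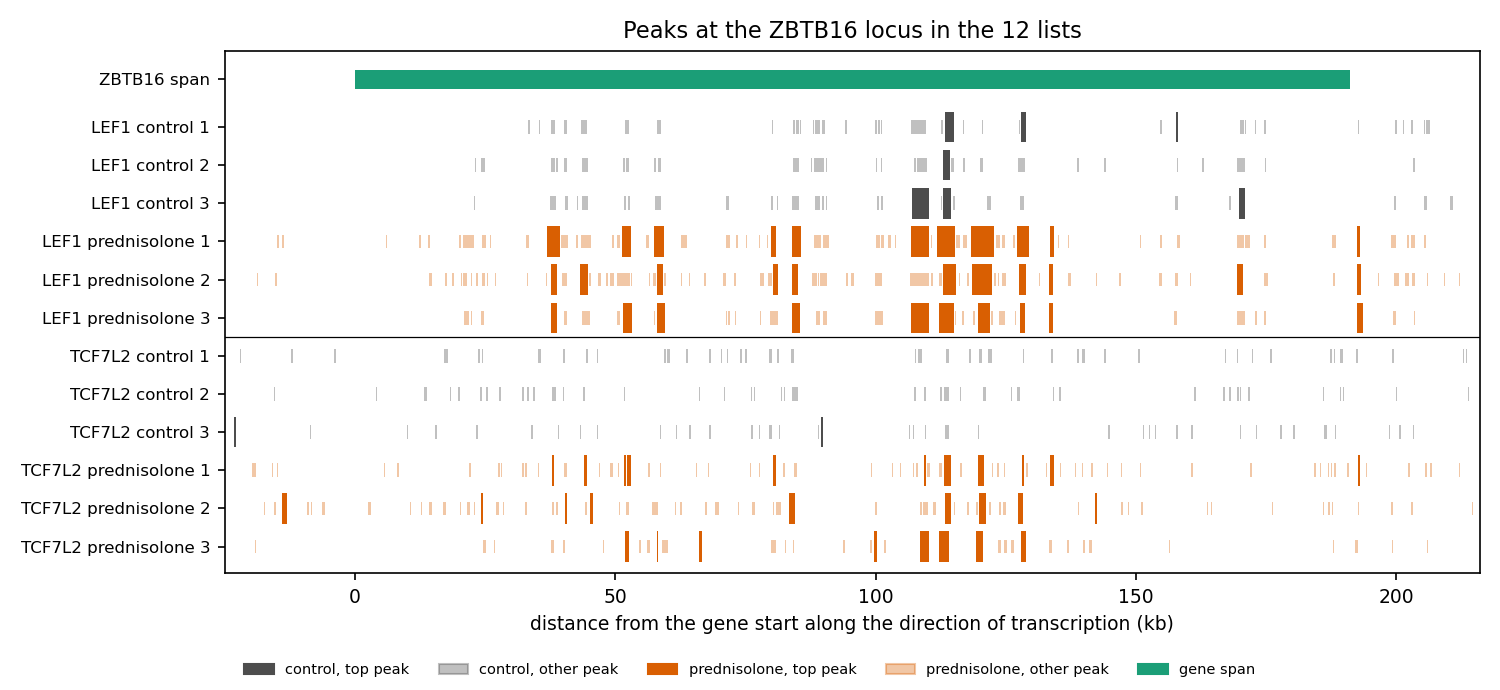
Peaks along the ZBTB16 locus by distance from the gene start (kb), 1 line per list, with top peaks tall and dark, other peaks short and pale, and the gene span as a bar. All 6 prednisolone lists have top peaks at 120.2 and 128.4 kb, where control 1 of LEF1 alone of the 6 control lists has one (at 128.4 kb).

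KLF9 had its strongest LEF1 site at the start of the gene, chr9:73028664-73029586, where all 6 lists had a top peak. Its ranks were 12486, 6788 and 13541 in the controls and 6047, 6059 and 19951 after prednisolone, so the groups overlapped. TCF7L2 had a top peak there, chr9:73028639-73029272, in control 3, prednisolone 1 and prednisolone 2, and no peak in prednisolone 3. A LEF1 region 4.3 kb upstream, chr9:73033675-73036920, was gained, with a fold of 3.15, 1.87 and 2.21 in the controls and 4.07, 3.52 and 4.11 after prednisolone. The gap there was small, and control 1 stood nearest the treated lists. TCF7L2 had top peaks at the same place, chr9:73033923-73036037, in the 3 controls, ranked 8732, 6196 and 11723, and in prednisolone 1, ranked 2911, while prednisolone 2 and 3 ranked 91682 and 31362.

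PER1 carried little signal of either antibody. Its only LEF1 region, chr17:8022604-8022991, lay 33.2 kb beyond the start and had a top peak in control 3 and prednisolone 3. Its only TCF7L2 region, chr17:8079073-8079579, had a top peak in prednisolone 1 alone. Peaks within 1 kb of the PER1 start were present in 2 of 3 control and 3 of 3 prednisolone LEF1 lists, and none was a top peak.

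FKBP5 carried the site that was present in every list. LEF1 had a top peak in all 6 lists in chr6:35694045-35700567, with summits about 4.0 kb upstream of the gene start, ranked 744, 1434 and 1494 in the controls and 1477, 516 and 1136 after prednisolone. TCF7L2 ranked 484, 313 and 367 in the controls and 339, 583 and 381 after prednisolone at chr6:35697669-35700590. The treatments overlapped for both antibodies, and median summits of the antibodies lay 45 bp apart. When the peaks of all 12 lists were merged, this was the 1 region of 68 at the loci with a top peak in all 12, as were 0.716% of 94397 regions in the genome.

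The LEF1 peaks over the FKBP5 start differed in shape between treatments. In the controls a separate weak peak of 1698, 1440 and 1310 bp lay at the start, outside the top peaks, with a fold of 3.13, 2.18 and 2.88. In the prednisolone lists a single peak of 6107, 6420 and 6384 bp ran from the start through the upstream site. A top peak therefore covered the start in 0 of 3 control and 3 of 3 prednisolone lists. The summits of these prednisolone peaks lay at the upstream site, so their ranks are not a measure of signal at the start. How often peaks join in this way elsewhere in the genome was not counted. The upstream peaks of the controls were 3009, 2764 and 2919 bp long. TCF7L2 at the start, chr6:35695573-35697265, had a top peak in control 2, prednisolone 1 and prednisolone 3, with a fold of 2.06, 3.13 and 2.07 in the controls and 4.04, 2.32 and 3.63 after prednisolone, so the groups overlapped. This is the outermost FKBP5 start, whose promoter window, without a CTTTG, is printed above. RefSeq also lists inner starts of FKBP5 and TSC22D3, and peaks at these were not looked up.

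Inside FKBP5, the antibodies moved in opposite directions at 1 site 8.0 kb from the start. LEF1 at chr6:35685806-35688671 ranked 16612, 40116 and 57556 in the controls and 4750, 1427 and 3464 after prednisolone, with a fold of 3.5, 2.48 and 2.58 against 5.05, 6.93 and 5.36. TCF7L2 at chr6:35687307-35688433 was lost: its fold was 2.44, 2.45 and 3.09 in the controls, 1.78 and 1.88 in prednisolone 1 and 2, and no peak was listed in prednisolone 3. The TCF7L2 control peaks were weak, with −log10 q-values of 1.16, 0.823 and 2.82. Such opposite separation of the ranks was found at 0.0678% of regions in the genome, and the difference between the antibodies was not tested. At chr6:35549043-35550917, 146.4 kb from the start, LEF1 also ranked better after prednisolone, with a fold of 6.3, 5.53 and 4.65 against 9.47, 10.8 and 8.67.

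**Figure D3:**
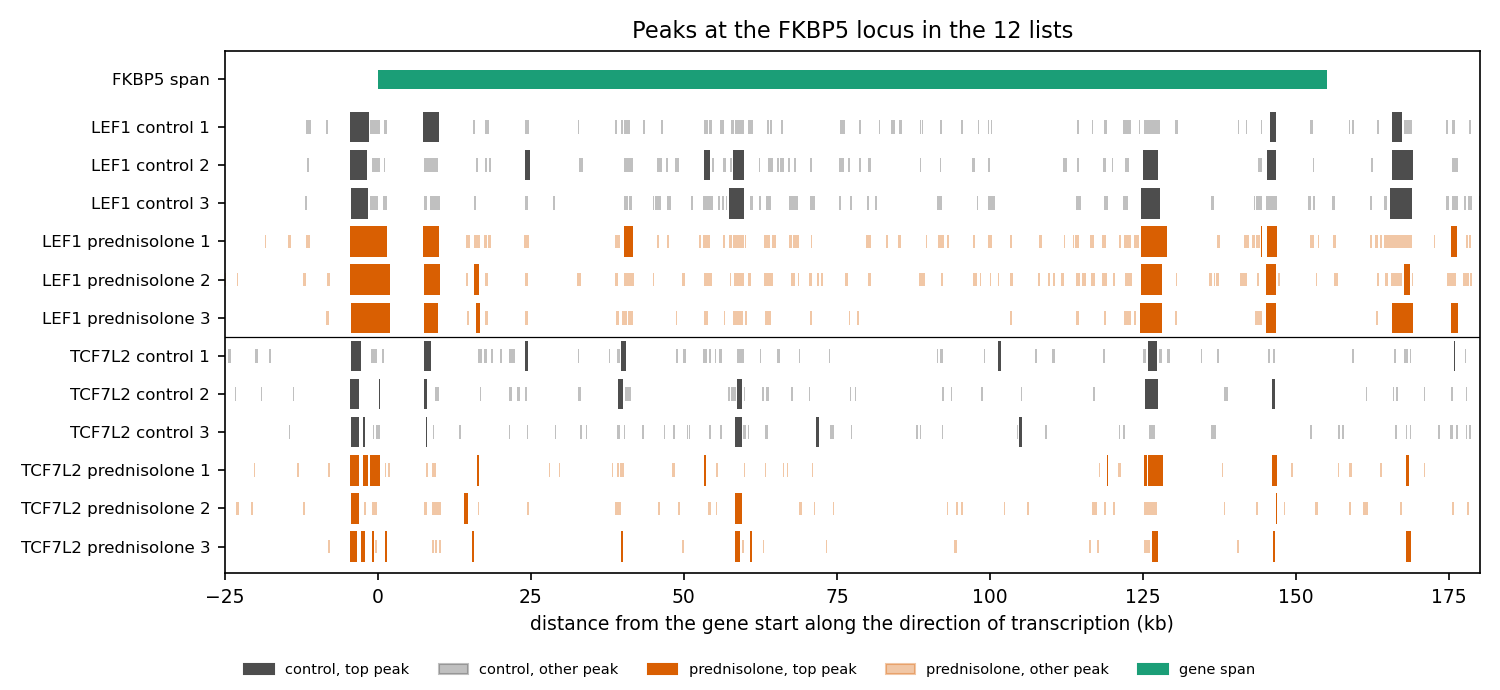
Peaks along the FKBP5 locus by distance from the gene start (kb), 1 line per list, with top peaks tall and dark, other peaks short and pale, and the gene span as a bar. LEF1 prednisolone lists show 1 long peak of 6107 to 6420 bp over the start and the upstream site, and LEF1 control lists show separate peaks.

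TSC22D3 had 2 LEF1 regions whose ranks did not overlap between treatments. At chrX:106984035-106986500, 34.0 kb from the start, the fold was 4.55, 3.71 and 6.75 in the controls and 11.7, 6.07 and 5.45 after prednisolone, so the folds overlapped although the ranks did not (8242, 15868 and 7602 against 1731, 2948 and 4309). At chrX:106953479-106957016, over the end of the gene, the region was gained, with a fold of 3.8, 4.19 and 4.86 against 8.67, 5.38 and 7.72. That call rests on a prednisolone 2 peak at rank 19821, tied with others at the limit of 20000. At the start itself, LEF1 had a weak peak in 0 of 3 control and 3 of 3 prednisolone lists, ranked 223345, 35650 and 76852. Their −log10 q-values were 0.185, 3.58 and 0.696. None was a top peak, so by top peaks the treatments did not differ there, and no share in the genome was computed. TCF7L2 had a peak there in prednisolone 1 alone, at chrX:107018538-107019394 with a fold of 3.61. The TCF7L2 region of TSC22D3 with the best median rank lay at chrX:106984816-106985599, within the LEF1 region at 34.0 kb. Its fold was 1.78, 2.21 and 4.35 in the controls and 2.92, 2.17 and 5.09 after prednisolone, and the groups overlapped.

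As a share of their full lists, both antibodies had more peaks at TSC22D3 after prednisolone. LEF1 had 2.46, 4.23 and 4.21 peaks per 100000 in the controls and 6.66, 6.68 and 9.31 after prednisolone. TCF7L2 had 2.31, 3.33 and 2.37 against 5.36, 3.54 and 5.55. The groups did not overlap in either case, as in 4.41% of LEF1 and 5.19% of TCF7L2 windows of that length, and the exact permutation p-value was 0.1 for each (n = 3 each). For TCF7L2 the separation came only with division by list length: the peaks numbered 9, 11 and 8 in the controls and 17, 14 and 8 after prednisolone (exact permutation p = 0.4, two-sided).

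DUSP1 had 1 lost region for each antibody, and the other lost TCF7L2 region was that in FKBP5. At chr5:172215680-172216750, 18.2 kb upstream, LEF1 ranked 9705, 17730 and 9961 in the controls and 45519, 22999 and 48641 after prednisolone, with a fold of 5.65, 4.28 and 5.27 against 3.21, 4.84 and 2.84. The folds overlapped, since prednisolone 2 lay above control 2. TCF7L2 lost chr5:172220200-172221521, 22.3 kb upstream, with a fold of 3.14, 3.24 and 3.3 in the controls and a peak of 2.51 in prednisolone 1 alone. By contrast, LEF1 at chr5:172191748-172194178, just past the gene's end, was stable, with a fold of 5.99, 6.48 and 5.49 against 6.91, 6.29 and 7.17. Over the full lists TCF7L2 had 3.59, 3.94 and 4.15 peaks per 100000 at DUSP1 in the controls and 2.84, 1.26 and 2.78 after prednisolone, a separation seen in 5.14% of windows. LEF1 had 7.04, 7.06 and 4.98 against 4.58, 3.08 and 10.09, which overlapped, with prednisolone 3 the highest (exact permutation p = 0.9, two-sided). At the DUSP1 start, LEF1 at chr5:172198923-172199809 had a top peak in prednisolone 1 alone, with a fold of 3.45, and folds of 1.56 to 2.79 in the other lists. NEURL1B and ERGIC1 are the neighbouring genes in RefSeq order, and the peaks were not assigned to either.

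SGK1 had its main site 143.6 kb from the start of the long gene span, chr6:134494805-134495963. LEF1 had a top peak there in the 3 controls and in prednisolone 1 and 2, and ranked 35619 in prednisolone 3, so the groups overlapped. The 143.6 kb is from the outermost start only. RefSeq on GRCh38.p14 also lists inner SGK1 starts, 1 of them with its promoter at chr6:134174867-134175116. That window lies about as far from the outermost promoter, chr6:134318113-134318362, as this site does from the outermost start. Positions were not moved between builds, so the site may lie near an inner start. None of the 5 TCF7L2 regions of SGK1 had a top peak in more than 1 list.

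**Figure D4:**
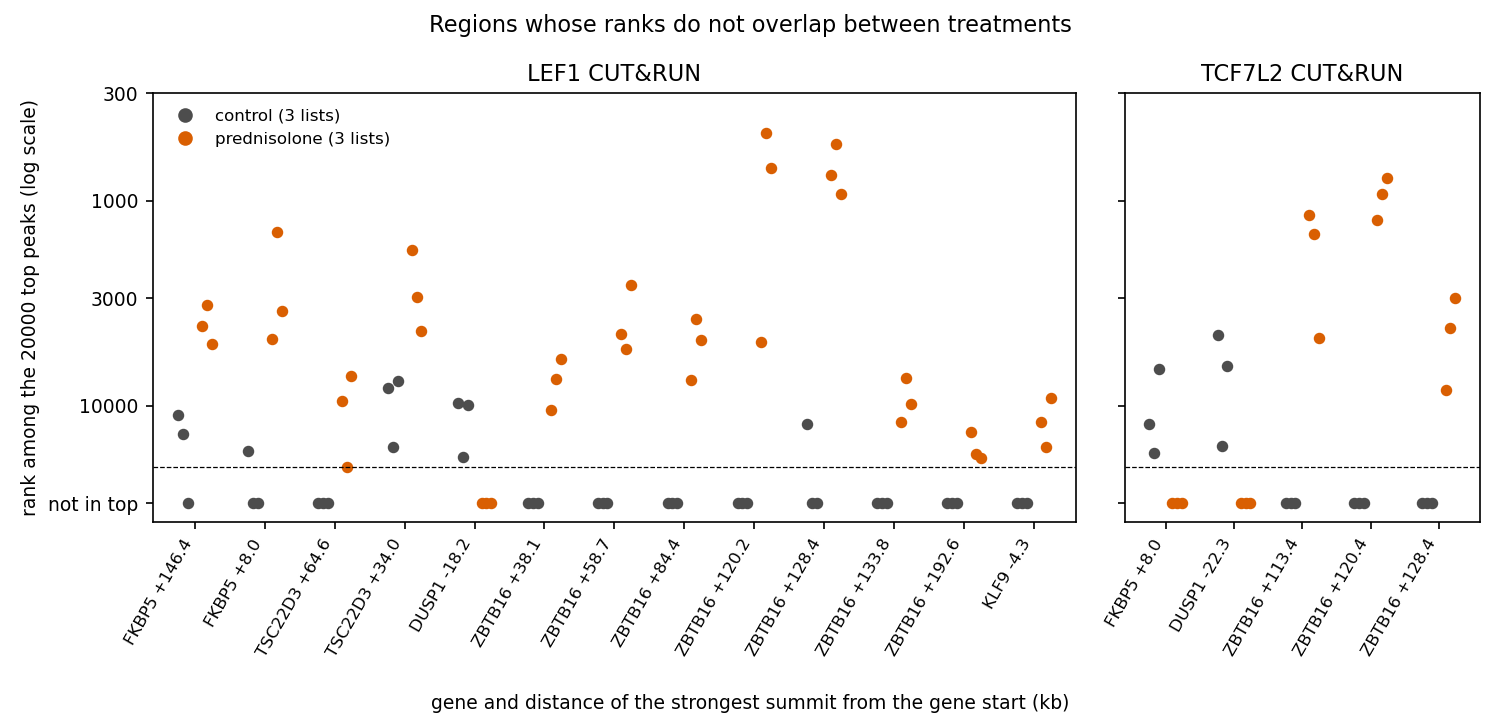
Rank among the 20000 top peaks (log axis, strongest at the top, 1 point per list) for each region whose ranks did not overlap between treatments, labelled by gene and kb from its start; lists without a top peak there are at the bottom, below the dashed limit of 20000. At 6 of the 7 LEF1 regions of ZBTB16 no control list had a top peak, and the FKBP5 site at 8.0 kb is better after prednisolone for LEF1 and worse for TCF7L2.

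The antibodies shared many of these sites. Of the 68 regions merged over the 12 lists, 33 had top peaks of both antibodies (48.5%), against 19.8% in the genome, 11 of LEF1 alone and 24 of TCF7L2 alone. No region at the loci had a top peak in all 6 lists of 1 antibody and none of the other, against 1.56% of regions in the genome for LEF1 and 0.635% for TCF7L2. Exchanging antibody labels within treatment, with 400 relabellings and a smallest exact p-value of 0.005, called 0 regions at an adjusted p of 0.05 over all 94397, where the smallest adjusted p was 0.228. A call would have needed many more regions at the smallest exact p-value, so the 0 says little about the antibodies. At the loci 0 regions had an unadjusted exact p under 0.05. In the 33 shared regions the median distance between LEF1 and TCF7L2 summits was 96 bp, and 25 lay within 250 bp. The LEF1 peak was the longer in 33 of 33, with a median of 1481 against 562 bp. LEF1 regions were also longer in the genome, with a median of 1365 against 460 bp. The summit distances have no genome value beside them here.

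TCF7L2 was looked up at the 8 gained LEF1 regions. It had a top peak in a control list at 1 of them (12.5%), the KLF9 site, and in a prednisolone list at 7 (87.5%). For all 1042 gained LEF1 regions in the genome the shares were 31.6% and 53.9%. Of the 7, only chr11:114048289-114052673 had a TCF7L2 top peak in all 3 prednisolone lists, and the others had it in 1 list each. In the genome, 78.1% of TCF7L2 regions had a top peak in 1 list alone. The LEF1 and TCF7L2 ranks both improved without overlap at chr11:114048289-114052673 and chr11:114057138-114059456, both in ZBTB16, and at no other region of the loci. In the genome 248 regions (0.263%) did so. Both worsened at no region of the loci, against 0.336% in the genome.

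The shortest peak in a list split the libraries of both antibodies across treatments into control 1 with prednisolone 2 and 3, and control 2 and 3 with prednisolone 1. It was 164 to 165 bp in the former set and 187 to 197 bp in the latter for LEF1, and 193 to 201 bp and 158 to 167 bp for TCF7L2. Within these sets, LEF1 top peaks at ZBTB16 were 3 against 11 and 10, and 1 and 3 against 11. TCF7L2 top peaks were 0 against 9 and 8, and 0 and 2 against 11. The direction at ZBTB16 was the same within both sets. It could not have differed, since the treatments did not overlap there, so the split adds no support. The gained and lost calls, which need all 6 lists, hold in both sets by construction.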

How the data were processed

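CUT&RUN peak lists were deposited for 12 libraries from Nalm6 cells. Each sample has its own list, and MACS2 and hg19 are named in the submitters' processing notes; the aligner, versions and duplicate handling are not given in the sources used here. Each deposited peak has its position and summit, the fold (a ratio to modelled background), and p and q-values as −log10, all from the authors' caller. Positions were deposited as whole bases and are given 1-based. Read totals were not used, so depth is known only through list length.

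The 20000 top peaks of each list by −log10 p, then fold, were used, with peaks equal in both taken in seeded random order. Peaks of an antibody overlapping by at least 1 base were merged into regions. Locus counts were compared by exact permutation tests, two-sided, which measure only the spread between these samples. Windows of each locus's length tiled over the genome, and all merged regions, gave the background. The antibody test was adjusted over all regions by the Benjamini-Hochberg method. Gene spans are in kb, so distances are accurate to about 1 kb. They are measured from the outer start of each span, and peaks at inner starts were not looked up. Strands are general knowledge for ZBTB16 and RefSeq for the others.

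Regions named are, per locus and antibody, those with the best median rank (where at least 3 of the lists had a top peak), those gained, lost or separated by rank, and those over a gene start. The members and lists were chosen with earlier results of these data known. A list of other glucocorticoid-responsive genes was not run, because no hg19 annotation was used here. Analyses used Python 3.11.15, pandas 2.3.3, numpy 2.4.6 and scipy 1.17.1, tested on simulated data.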

Additional observations from a re-analysis of the deposited data

Results flagged for a closer look

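At 1 FKBP5 site, on chromosome 6 from 35685806 to 35688671, every LEF1 prednisolone list ranked the peak better than every control list, and every TCF7L2 prednisolone list ranked it worse than every control list. Opposite directions of the antibodies in this sense occurred at 64 of 94397 regions in the genome (0.0678%). The TCF7L2 control peaks were weak, with −log10 q-values of 1.16, 0.823 and 2.82. With the 10000 strongest peaks the TCF7L2 loss was no longer called. The difference between the antibodies was not tested.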

How the results depend on the processing

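Of the recomputed counts of gained, lost and antibody-specific regions at the loci, 101 stayed within 1.5 times of the reported count and 29 did not. The 101 include antibody-specific counts, reported as 0, that stayed at 0. Some of these could not change, namely those with antibodies exchanged within replicate numbers or with absence required of the other antibody's full lists. The 101 therefore overstate how stable the gained and lost counts were. LEF1 gained regions numbered 8, and 4 with the 5000 strongest peaks and 1 where absence was required of the full lists. The 1 LEF1 lost region became 0 with the 10000 or 5000 strongest peaks, with a −log10 q limit of 2, without the flank and where absence was required of the full lists, and 3 with full lists. The 3 TCF7L2 gained regions became 1 with a −log10 q limit of 2 or 5 and 0 where absence was required of the full lists. The 2 TCF7L2 lost regions became 0 with the 10000 or 5000 strongest peaks, at either q-value limit and where absence was required of the full lists, 1 without the flank or with summits within 250 bp, and 8 with full lists. LEF1-only regions rose from 0 to 1 with full lists or summits within 250 bp, to 7 with a −log10 q limit of 2 and to 4 with 5. In the genome, LEF1-only regions rose as well, from 1474 to 6479 with full lists and 1694 with summits within 250 bp. They numbered 13476 with the limit of 2 and 7471 with 5. Fewer peaks enter with the 10000 or 5000 strongest. At a −log10 q limit of 5, each LEF1 list held 21764 to 27309 peaks, more than the 20000 top peaks. Each TCF7L2 list held 1271 to 3524 at that limit. The q-value limits thus compare lists of unequal length between the antibodies. The cause of the changes was not tested.

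With 1 replicate left out at a time, gained and lost LEF1 regions numbered 8 to 10 and 1 to 2, and TCF7L2 regions 3 to 6 and 1 to 4, and regions of 1 antibody alone stayed at 0. The LEF1 lost count was 2 without control 1, control 2 or prednisolone 1. The TCF7L2 lost count was 1 without control 1 and 4 without control 2, and its gained count was 6 without prednisolone 2. The mean difference at ZBTB16 was 7.67 to 8.67 top peaks for LEF1 and 7.83 to 9.33 for TCF7L2. The gained TSC22D3 region was lost when no tied peak was kept.

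Same-numbered replicates had correlations of −0.055 to −0.008, so the numbers were not taken as pairs. With the replicate number as a block, 12 LEF1 regions ranked better in all 3 pairs and 1 worse, and TCF7L2 had 3 and 2. In the genome these were 3800 and 4023 of 36895 LEF1 regions, and 1009 and 2298 of 79352 TCF7L2 regions. A region whose ranks do not overlap meets this rule by construction, so these counts could not fall below the rank calls. The blocked antibody test, whose smallest exact permutation p is 0.03125, called 0 regions. With that smallest p, adjustment over all regions left hardly any room for a call, so the 0 says nothing about the antibodies.

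Depth is unknown, and 3 lists per group limit every comparison. TCF7L2 top peaks reach −log10 q-values of 0.39, so absence from a TCF7L2 list says little about occupancy.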
